A study of Mus musculus with 6 samples.

Results

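JAK-STAT pathway genes were followed in mouse LSK cells, the part of the bone marrow where blood stem cells and early progenitors are concentrated. They were taken by gene symbol from the deposited count table and are 10 of its 55573 genes: the kinases Jak1 and Jak2, the transcription factors Stat3, Stat5a and Stat5b, the feedback inhibitors Socs1, Socs2, Socs3 and Cish, and the target kinase gene Pim1. The choice left out the members of the pathway that are specific to interferon. It was made by name and not by a cut on measured values, but earlier results of these data were known when it was made. RNA sequencing covered 3 wild-type libraries (Etv6+/+) and 3 libraries with 1 Etv6 R355X allele (Etv6 R355X/+, written Etv6+/- in the genotype field). All were C57BL/6J mice aged 3 months, and cells with c-Kit and Sca-1 but without lineage markers were sorted after magnetic c-Kit enrichment. The labels name no cytokine or other treatment and do not say how many animals a library holds. The series title asks how ETV6, an ETS-family repressor, acts on genes of the inflammatory response.

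Cytokine receptors of blood progenitors have no kinase of their own and carry Janus kinases (JAKs) on their inner side. Binding of the cytokine activates the JAKs, which phosphorylate STAT proteins, and these move to the nucleus and switch on target genes. Among the targets are SOCS proteins and CIS, the product of Cish, which bind the receptor or the kinase and shut the signal down, so their transcripts are often read as a trace of recent signalling. In stem and progenitor cells JAK2 and STAT5 serve interleukin-3 and related cytokines, and STAT3 serves cytokines that use gp130 and the G-CSF receptor.

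Depth ranged from 45.2 to 92.2 M expected counts per library, deepest in mutant replicate 1, which also held the most nuclear ribosomal RNA (8.61% of counts against 6.30% to 7.19% in the other 5). The sorting markers were present in every library, Kit at 351 to 451 CPM (counts scaled to library size) and Ly6a, which encodes Sca-1, at 71.7 to 93.5 CPM. Etv6, the targeted gene, measured 454, 419 and 400 CPM in wild-type replicates 1, 2 and 3 and 305, 341 and 386 CPM in mutant cells. All mutant values were lower, but the log2 fold change of -0.30 missed the threshold of 0.05 in edgeR's quasi-likelihood test (p adjusted over all genes = 0.245). An exact two-sided permutation test of the same gene gave p = 0.1, the smallest that 3 against 3 allows.

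None of the 10 genes differed between mutant and wild-type LSK cells at the adjusted threshold of 0.05. All 10 passed the filter on low counts. In edgeR's test 0 of 10 passed, against 0.266% of all tested genes, and DESeq2 and limma-voom also called 0, against 1.68% and 0.199% of all genes they gave an adjusted p. At an unadjusted p under 0.05 there was 1 of 10, Socs2, lower in the mutant, where 10.6% of all genes reached that level in either direction. In 0 of 10 were the genotypes free of overlap, against 16.3% of all genes. The median log2 fold change of the 10 was -0.072, with 3 above and 7 below 0, beside a median of 0.0019 over all 20646 genes tested.

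**Figure D1:**
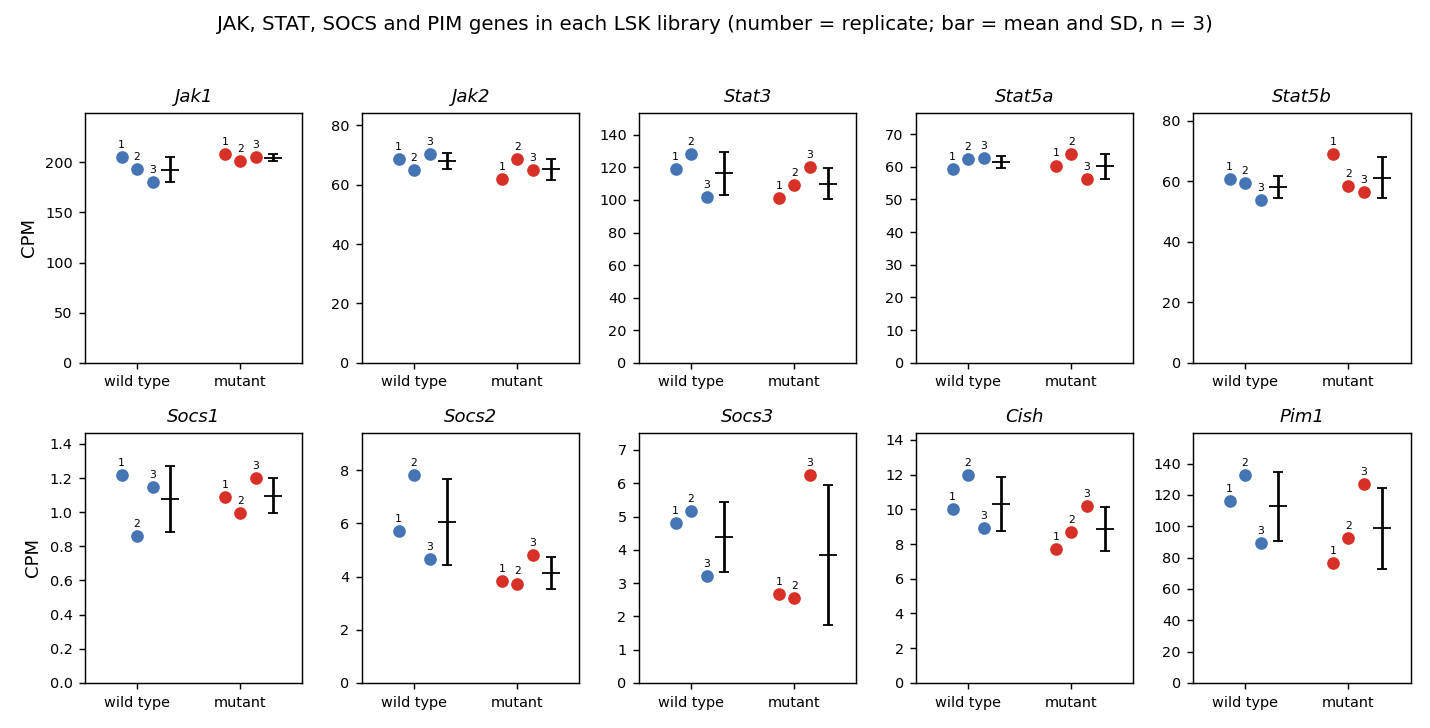
CPM of each of the 10 genes in the 3 wild-type (blue) and 3 mutant (red) libraries, with replicate numbers beside the points and the mean and SD (n = 3) beside each group; every axis starts at 0. The genotypes overlap in all 10 panels, and mutant replicate 3 lies apart from the other 2 mutant libraries for Socs3 and Pim1.

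The kinase genes were among the steadiest of the set. Jak1, which serves gp130, interferon and common gamma chain receptors, measured 205, 193 and 180 CPM in wild-type replicates 1, 2 and 3 and 208, 201 and 205 CPM in mutant cells. The mutant values lay together at the upper end of the wild-type range. The mean was 193 ± 12.6 CPM in wild-type cells and 205 ± 3.36 CPM in mutant cells (SD, n = 3), a ratio of 1.06 with a 95% interval from 0.964 to 1.17 (edgeR adjusted p = 0.676).

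Jak2, the kinase of the erythropoietin and interleukin-3 receptors, measured 68.8, 64.9 and 70.2 CPM in wild-type cells and 61.8, 68.8 and 65.1 CPM in mutant cells. The groups overlapped, with mutant replicate 1 lowest. The ratio was 0.959 (95% interval 0.867 to 1.06; edgeR adjusted p = 0.795). Jak1 lies on chromosome 4 from 101152367 to 101265282 on the minus strand and Jak2 on chromosome 19 from 29251828 to 29313080 on the plus strand (GRCm38).

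The 3 STAT genes sit side by side on chromosome 11. Stat5b runs from 100780731 to 100850724 on the minus strand, Stat5a from 100859351 to 100885169 on the plus strand and Stat3 from 100885098 to 100939540 on the minus strand (GRCm38). The ends of Stat5a and Stat3 thus overlap tail to tail by 72 bases, all of them exonic in both genes. The counts bear this out: Stat3 and Stat5a had fractional expected counts in 6 of 6 libraries, and in each the 2 fractions added up to a whole number (within 0.021). In wild-type replicate 1, for instance, 7296.07 and 3631.93 made 10928. Reads from this overlap were therefore shared between these genes by the authors' counting, which used no strand.

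Stat5a and Stat5b, the close copies, showed no such sharing in the counts. Stat5b had whole counts in 6 of 6 libraries, although 11% of the 50-base words of its annotated transcripts also occur in those of Stat5a. With Stat3, Stat5b shared 0 such words.

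Stat5a, a transducer of interleukin-3 and related signals, measured 59.2, 62.3 and 62.6 CPM in wild-type cells and 60.4, 63.8 and 56.3 CPM in mutant cells. Mutant replicates 2 and 3 were the highest and the lowest of all 6 libraries. The ratio was 0.980 (95% interval 0.884 to 1.09; edgeR adjusted p = 0.921). Stat5b, its partner with largely shared functions, measured 60.8, 59.4 and 53.8 CPM in wild-type cells and 68.8, 58.2 and 56.5 CPM in mutant cells. Mutant replicate 1 was the highest and the other 2 mutant libraries lay within the wild-type range. The ratio was 1.05 (95% interval 0.925 to 1.2; edgeR adjusted p = 0.8). Summed before the fit, the pair gave a log2 fold change of 0.023 (SE 0.064), where Stat5a alone stood at -0.030 (SE 0.067).

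Stat3, the transducer of gp130 cytokines and G-CSF, measured 119, 128 and 102 CPM in wild-type cells and 101, 109 and 120 CPM in mutant cells. High and low libraries occurred in both genotypes. The mean was 116 ± 13.2 CPM in wild-type cells and 110 ± 9.85 CPM in mutant cells (SD, n = 3), a ratio of 0.944 (95% interval 0.821 to 1.09; edgeR adjusted p = 0.798). Summed with Stat5a, which removes any effect of how their overlap was split, the log2 fold change was -0.064 (SE 0.068), against -0.083 (SE 0.091) for Stat3 alone. The sum also carries the change of Stat5a itself (-0.03), so it cannot show what the split did to Stat3. This sum was added after the shared fractions were seen.

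The feedback inhibitors had lower counts and wider spreads. Socs2, which encodes an inhibitor of growth hormone and other STAT5 signals and is itself switched on by STAT5, measured 5.72, 7.84 and 4.66 CPM in wild-type replicates 1, 2 and 3. In the mutant it measured 3.82, 3.74 and 4.83 CPM. Mutant replicates 1 and 2 lay below every wild-type library, and mutant replicate 3 lay just above wild-type replicate 3, so the genotypes overlapped. The mean was 6.08 ± 1.62 CPM in wild-type cells and 4.13 ± 0.610 CPM in mutant cells (SD, n = 3). The ratio of 0.679 had a 95% interval from 0.491 to 0.939, with an unadjusted p of 0.0237 and an adjusted p of 0.399 in edgeR's quasi-likelihood test. A rate of 4.80% of all tested genes reached an unadjusted p under 0.05 as lower in the mutant. The log2 fold change of -0.56 was -0.33 without wild-type replicate 2, the highest library, and -0.72 without wild-type replicate 3.

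Socs3, the inhibitor of gp130 and G-CSF receptor signalling and a STAT3 target, measured 4.81, 5.16 and 3.20 CPM in wild-type cells and 2.68, 2.55 and 6.26 CPM in mutant cells. The mutant held both the lowest libraries and the highest one. The mean was 4.39 ± 1.04 CPM in wild-type cells and 3.83 ± 2.11 CPM in mutant cells (SD, n = 3), and the ratio of 0.865 had a wide 95% interval from 0.519 to 1.44 (edgeR adjusted p = 0.873). Its log2 fold change of -0.21 was -0.75 without mutant replicate 3 and 0.011 without mutant replicate 2, so single libraries set both its size and its sign.

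Cish, a STAT5 target whose product competes for receptor docking sites, measured 10, 12 and 8.91 CPM in wild-type cells and 7.73, 8.67 and 10.2 CPM in mutant cells. Mutant replicates 1 and 2 were the lowest libraries and wild-type replicate 2 the highest. The mean was 10.3 ± 1.55 CPM in wild-type cells and 8.88 ± 1.26 CPM in mutant cells (SD, n = 3), a ratio of 0.861 (95% interval 0.678 to 1.09; edgeR adjusted p = 0.673). Its log2 fold change of -0.22 was -0.33 without mutant replicate 3 and -0.094 without wild-type replicate 2. The gene lies on chromosome 9 from 107296026 to 107302784 on the plus strand (GRCm38) and overlaps 2 annotated genes of the opposite strand, which unstranded counts could mix. Its counts were whole in 6 of 6 libraries.

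Socs1, the inhibitor that acts on JAKs directly, was the least abundant. It measured 1.22, 0.860 and 1.15 CPM in wild-type cells and 1.09, 0.997 and 1.2 CPM in mutant cells, from 42 to 95 counts a library. The genotypes overlapped fully. The ratio was 1.01, with a 95% interval from 0.666 to 1.54 (edgeR adjusted p = 0.991). The spread within a genotype was 0.21 on the log2 scale, where counting alone gives 0.19.

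Pim1, a growth and survival kinase gene driven by STAT5 and STAT3, measured 116, 133 and 89.2 CPM in wild-type cells and 76.6, 92.7 and 127 CPM in mutant cells. Both genotypes spanned nearly the same range, with mutant replicate 3 near the top. The mean was 113 ± 22.0 CPM in wild-type cells and 98.6 ± 25.5 CPM in mutant cells (SD, n = 3), a ratio of 0.875 (95% interval 0.670 to 1.14; edgeR adjusted p = 0.747). Its log2 fold change of -0.19 was -0.41 without mutant replicate 3 and -0.039 without mutant replicate 1. Pim1 lies on chromosome 17 from 29490753 to 29496112 on the plus strand (GRCm38). It shared reads with the antisense gene Gm26885, whose part was small: in wild-type replicate 1 the antisense gene took 50.42 of 7140 expected counts.

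**Figure D2:**
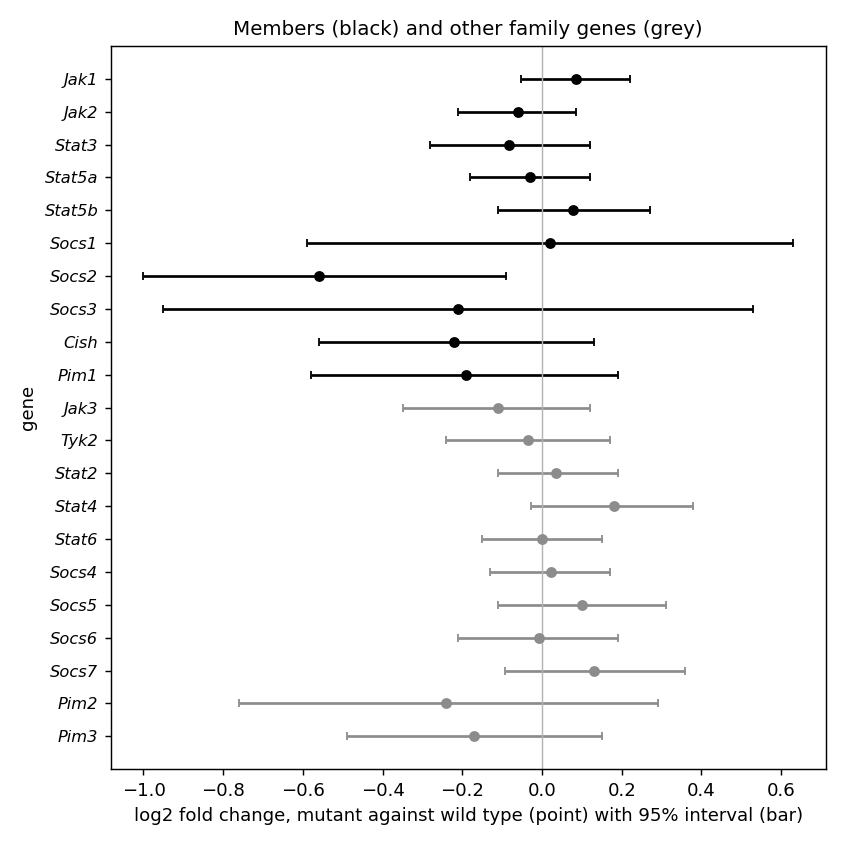
Log2 fold change of mutant against wild type (point) with its 95% interval (bar) from edgeR for the 10 genes (black) and 11 other JAK, STAT, SOCS and PIM genes (grey). Intervals are narrow for the kinase and STAT genes and wide for Socs1, Socs2 and Socs3, and among the 21 the interval of Socs2 alone (0.491 to 0.939 as a ratio) leaves out 0.

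Spread between libraries was wider for Pim1, Cish and the SOCS genes than for the kinase and STAT genes. The highest library exceeded the lowest by 1.16-fold for Jak1, 1.14-fold for Jak2, 1.13-fold for Stat5a, 1.28-fold for Stat5b and 1.27-fold for Stat3. For Cish it was 1.55-fold, for Pim1 1.73-fold, for Socs2 2.10-fold and for Socs3 2.45-fold. In Pim1 the SD within a genotype was 0.33 on the log2 scale, while counting alone gives 0.019. The same values were 0.58 and 0.10 for Socs3, 0.30 and 0.089 for Socs2 and 0.21 and 0.063 for Cish. They were 0.15 and 0.018 for Stat3, 0.13 and 0.026 for Stat5b, 0.072 and 0.025 for Stat5a, 0.069 and 0.024 for Jak2 and 0.069 and 0.014 for Jak1. The SD thus exceeded that of counting in each of these 9 genes, kinase and STAT genes included. Socs1 was wider too, at 1.42-fold, but its SD of 0.21 lay near the 0.19 that counting alone gives. On a list of 30 other known STAT5 and STAT3 target genes the median SD within a genotype was 0.17. Over all tested genes it was 0.19.

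Stat3, Pim1, Cish, Socs2 and Socs3 ranked the libraries alike. From low to high, Pim1 and Stat3 had one and the same order: mutant 1, wild type 3, mutant 2, wild type 1, mutant 3 and wild type 2. Cish, Socs2 and Socs3 also had mutant 1, mutant 2 and wild type 3 as their lowest 3 libraries and wild type 1, wild type 2 and mutant 3 as their highest 3. Socs1, with its low counts, did not follow this order, nor did Jak1, Jak2, Stat5a and Stat5b. Of all tested genes 7.87% had the same lowest 3 libraries. These 5 genes were grouped after their values were seen, and no test was made of it.

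The order was not particular to feedback and target genes. Among 11 other genes of the JAK, STAT, SOCS and PIM families 3 had the same lowest 3 libraries: Jak3, Socs6 and Pim2. Jak3, the kinase of the common gamma chain, had exactly the order of Pim1, at 39.1, 44.4 and 34.1 CPM in wild-type replicates 1, 2 and 3 and 33.2, 35.4 and 40.3 CPM in mutant cells. Of 24 receptor genes 6 had these lowest 3: Csf3r, Il6st, Il2rg, Il4ra, Lifr and Crlf2. Of 30 known STAT5 and STAT3 target genes only Bcl3 and Il4ra did, a share of 6.67% that lies near that of all genes. That list was drawn without Pim1, Cish, Socs2 and Socs3, so the share does not count them. Genes named here were picked after their values were seen.

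**Figure D3:**
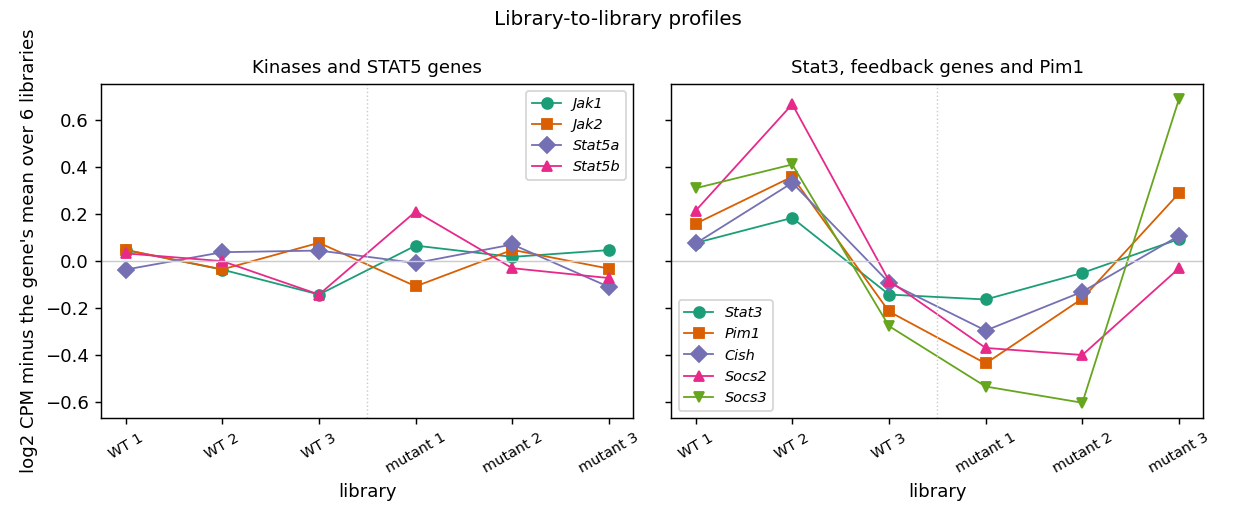
Log2 CPM of each gene minus its mean over the 6 libraries, for the kinase and STAT5 genes (left) and for Stat3, Pim1, Cish, Socs2 and Socs3 (right); lines join the values of 1 gene and imply no order of the libraries. On the right every gene is lower in wild-type replicate 3 and mutant replicates 1 and 2 than in wild-type replicates 1 and 2, while on the left the widest gene is Stat5b, from -0.142 in wild-type replicate 3 to 0.211 in mutant replicate 1, and on the right the narrowest is Stat3, from -0.163 to 0.184.

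Summed levels of several marker lists split along the same libraries. Of 9 erythroid marker genes 2 passed edgeR's adjusted threshold, against 0.266% of all tested genes, and both followed the genotype. Hbb-bt measured 15 to 20.4 CPM in wild-type cells and 54.5 to 99.5 CPM in mutant cells (edgeR adjusted p = 0.00213). Hbb-bs measured 24.3 to 33.3 CPM and 47.9 to 90.8 CPM (edgeR adjusted p = 0.0312). The summed level of the 9 was 242, 313 and 275 CPM in wild-type replicate 3 and mutant replicates 1 and 2, and 124, 109 and 155 CPM in wild-type replicates 1 and 2 and mutant replicate 3. Of this sum Car1 made 146, 86.4 and 92.8 CPM against 46.3, 52.8 and 38.6 CPM. In the same order of libraries, 6 megakaryocyte genes summed to 83, 73.4 and 75.2 CPM against 50.9, 54.1 and 50.4 CPM, and 9 T and NK cell genes to 128, 150 and 128 CPM against 99.9, 102 and 113 CPM. Most of the T and NK cell sum was Nkg7, at 121, 134 and 117 CPM against 87.8, 96.2 and 104 CPM. The T cell genes of the list did not share a highest library. Cd3e, Cd3g, Trbc2 and Cd8a were highest in wild-type replicate 1, at 2.09, 1.04, 3.34 and 1.45 CPM. Cd3d and Trac were highest in mutant replicate 1, at 0.961 and 1.33 CPM. Klrb1c followed the genotype, at 1.05 to 1.89 CPM in wild-type cells and 4.54 to 6.44 CPM in mutant cells (edgeR adjusted p = 0.0177). The 9 neutrophil and granule genes summed to 8900, 6290 and 6270 CPM against 6090, 5890 and 4560 CPM. Mpo, the largest part of this sum, did not split so, at 4690, 2220 and 2670 CPM against 2510, 2620 and 2010 CPM. Of the 9, only Elane, S100a8 and S100a9 split so when taken alone. The summed level of the 8 LSK marker genes went the other way. It was 1520, 1570 and 1670 CPM in wild-type replicate 3 and mutant replicates 1 and 2. It was 1980, 1900 and 1780 CPM in wild-type replicates 1 and 2 and mutant replicate 3. Taken alone, Cd34, Flt3, Meis1, Hlf and Mecom split this way, and Kit, Ly6a and Slamf1 did not. In mutant replicates 2 and 3 Kit measured 393 and 391 CPM. In mutant replicates 1 and 3 Ly6a measured 81.3 and 77.4 CPM.

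Other marker sums followed the genotype. The 9 B lineage genes summed to 113 to 149 CPM in wild-type cells and 159 to 356 CPM in mutant cells, with 9 of 9 above 0 in log2 fold change and 0 past edgeR's adjusted threshold. The 8 mast cell and basophil genes summed to 45.4 to 47.8 CPM and 61.1 to 77.4 CPM, with 8 of 8 above 0 and 1 past the threshold. Among all tested genes 50.6% were above 0 and 0.266% passed the threshold. The sum of the 10 macrophage and dendritic cell genes overlapped between genotypes, at 104 to 123 CPM and 113 to 160 CPM. Taken alone, 5 of the 10 had no overlap, all higher in the mutant, against 16.3% of all genes without overlap. At an unadjusted p under 0.05 in edgeR there were 7 higher and 1 lower, against 10.6% of all genes in either direction. Of the 10, 0 passed edgeR's adjusted threshold. DESeq2 called 5, against 1.68% of all genes it gave an adjusted p. No marker of these lists was at 0 in any library. The part of these cells in the levels of Stat3, Pim1, Cish, Socs2 and Socs3 was not tested, and in bulk RNA fewer cells of a type and less RNA per cell cannot be told apart.

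The genes with the most similar profile were sought among all tested genes with a mean of at least 10 CPM, as the smallest root mean square difference of centred log2 CPM over the 6 libraries. For Socs3 the nearest was Bcl3, which encodes an NF-kappaB cofactor and is on the list of known STAT targets, at a difference of 0.17. Bcl3 measured 11.2, 13.8 and 10.1 CPM in wild-type cells and 6.26, 6.46 and 13.9 CPM in mutant cells, the library order of Socs3 with mutant replicates 1 and 2 exchanged. The second was Chtf8 at 0.21. For Cish the nearest were Anxa4, an annexin gene, at 0.044 and Kdelc2 at 0.054, and for Socs2 Caprin2 at 0.13 and Tcp11l1 at 0.15. With 6 libraries and so many genes, close profiles can be found for nearly any gene, and these are given as a description.

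Sequence upstream of Socs3 and Pim1 is shown, Socs3 for the one STAT element found and Pim1 as the most abundant gene per kilobase of those that shared a library order. The 250 bases before each RefSeq start site (GRCm38.p6) were searched on both strands for the STAT element TTCNNNGAA and the ETS element CCGGAAG, which do not overlap each other here. RefSeq promoters were matched by symbol for 9 of the 10 genes, all but Socs2, so the search covers no sequence of Socs2. Bases that an annotated exon of the gene covers were left out of what is printed, and capitals mark a match.
Socs3, chr11:117969452-117969616, minus strand: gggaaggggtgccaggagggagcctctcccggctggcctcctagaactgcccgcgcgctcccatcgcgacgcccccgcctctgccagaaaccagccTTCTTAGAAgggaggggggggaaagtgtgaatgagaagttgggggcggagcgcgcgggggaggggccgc
Pim1, chr17:29490535-29490752, plus strand: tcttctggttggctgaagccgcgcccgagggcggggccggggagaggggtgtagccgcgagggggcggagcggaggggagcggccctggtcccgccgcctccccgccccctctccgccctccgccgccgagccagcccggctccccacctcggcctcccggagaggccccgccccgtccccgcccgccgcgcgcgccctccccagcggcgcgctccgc
Socs3 held 1 match to TTCNNNGAA, beginning at -154 from the start site, and the other 8 genes held 0. For Cish the window lay wholly in annotated exons of the gene, so the sequence before its annotated start was not searched. In the windows of Stat5a the longest stretches outside annotated exons were 75 and 111 bases. They were 107 bases in the first window of Stat5b, 165 for Socs3, 191 for Jak1, and 218 and 202 for Pim1. The windows of Jak2, Stat3 and Socs1 and the second of Stat5b lay wholly outside annotated exons of the gene. Among all 32851 promoter windows of 250 bases, 7.02% held at least 1 match to TTCNNNGAA. CCGGAAG was found in 0 of the 9 genes' windows and in 6.91% of all windows. A match is a run of letters and not a measured site, and no match says only that these letters are not in these windows.

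Levels were compared between genes per kilobase of annotated exon, taking all annotated exons of a gene together, which can be longer than 1 transcript. Pim1 was highest at 31.4 ± 6.72 CPM per kilobase and Jak1 followed at 27.5 ± 1.45 (SD over 6 libraries). Their ranges overlapped, so their order is not settled. Jak2 at 13.2 ± 0.634, Stat3 at 11.9 ± 1.15 and Stat5b at 10.8 ± 0.923 CPM per kilobase each overlapped the next. Stat5a at 8.52 ± 0.386 lay below all of them without overlap.

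The feedback genes were a step lower. Cish stood at 1.49 ± 0.230 and Socs3 at 1.42 ± 0.525 CPM per kilobase, overlapping each other. Socs2 at 0.535 ± 0.160 and Socs1 at 0.374 ± 0.0475 CPM per kilobase overlapped too and lay below the rest. The place of Socs2 below Socs3 rests on the lengths used, 9.53 and 2.89 kb. In plain CPM Socs2 had a mean of 5.1 and Socs3 of 4.11 over the 6 libraries. The inhibitor transcripts were thus lower per kilobase than every kinase and STAT gene of the set in each of the 6 libraries.

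**Figure D4:**
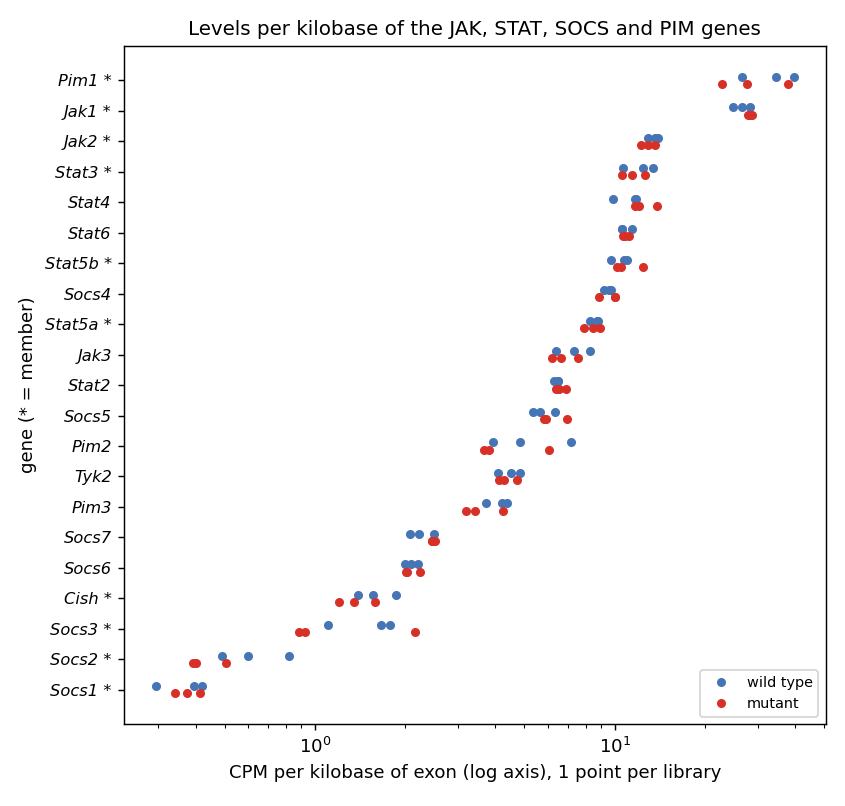
CPM per kilobase of exon on a log axis for 21 JAK, STAT, SOCS and PIM genes, 1 point per library, wild type in blue and mutant in red, with the 10 genes of the set marked by an asterisk. Socs1, Socs2, Socs3 and Cish are the lowest 4, and Pim1 and Jak1 the highest 2 by their means.

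Nor did any of 11 other genes of these families pass. In edgeR's test 0 of 11 passed the adjusted threshold and 0 had an unadjusted p under 0.05, against 10.6% of all genes in either direction. DESeq2 and limma-voom called 0, and the median log2 fold change was 0.00074, with 6 above and 5 below 0. Stat4, the transducer of interleukin-12 and the highest of them per kilobase at 11.8 ± 1.29, had the smallest p, at 42.9 ± 4.17 CPM in wild-type cells and 48.6 ± 4.59 CPM in mutant cells (SD, n = 3; edgeR adjusted p = 0.544). Socs7 stood at 16.5 ± 1.53 CPM in wild-type cells and 18.0 ± 0.222 CPM in mutant cells (edgeR adjusted p = 0.696), and Pim3 9.92 ± 0.806 and 8.80 ± 1.34 CPM (edgeR adjusted p = 0.733). Pim2, a sister kinase gene of Pim1, measured 13.5, 20.1 and 11 CPM in wild-type cells and 10.7, 10.3 and 16.9 CPM in mutant cells, and was picked after its values were seen. Its lowest 3 and highest 3 libraries were split as for Pim1, with wild type 2 again the highest.

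Of 19 other negative regulators, phosphatases, PIAS proteins, adaptors and parts of the SOCS ubiquitin ligase among them, 0 passed edgeR's adjusted test, and DESeq2 and limma-voom called 0. The median log2 fold change was 0.0076. At an unadjusted p under 0.05 in edgeR there were 2 higher and 0 lower, where 10.6% of all genes reached that level in either direction. The 2 were Elob, the elongin B that binds the SOCS box, at 33.1 ± 1.58 CPM in wild-type cells and 40.5 ± 8.12 CPM in mutant cells (edgeR adjusted p = 0.438), and Rnf7, a RING subunit of the ligase and the most abundant of the list per kilobase, at 54.7 ± 2.45 and 61.9 ± 6.25 CPM (edgeR adjusted p = 0.466). Both were highest in mutant replicate 1, Elob at 49.9 CPM and Rnf7 at 69.0 CPM. Ptpn6, the phosphatase SHP-1, measured 86.5 ± 1.98 CPM in wild-type cells and 79.2 ± 4.69 CPM in mutant cells (edgeR adjusted p = 0.521).

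Upstream of the kinases, 0 of 24 tested receptor genes passed edgeR's adjusted test (2 without a filter on low counts), and the median log2 fold change was 0.022. In edgeR 5 had an unadjusted p under 0.05 as higher and 3 as lower, where 10.6% of all genes reached that level in either direction. DESeq2 and limma-voom called 0. Il7r, the interleukin-7 receptor of lymphoid progenitors, measured 24.0, 24.5 and 22.0 CPM in wild-type cells and 41.8, 29.0 and 26.7 CPM in mutant cells. All 3 mutant values were higher, with replicate 1 far above the other 2 (log2 fold change 0.47, SE 0.15; edgeR adjusted p = 0.296). Without the filter on low counts edgeR's adjusted p was 0.00868 for Il7r and 0.0459 for Il2rb, an interleukin-2 receptor chain, in a setting that called 1.58% of all genes. Il2rb measured 4.24, 1.58 and 3.04 CPM in wild-type cells and 9.15, 4.83 and 2.81 CPM in mutant cells, which overlapped, and was named for that count after its values were seen. In the mutant the B lineage sum was likewise highest in replicate 1, at 356 CPM against 224 and 159 CPM. So was the T and NK cell sum, at 150 CPM against 128 and 113 CPM, most of it Nkg7 at 134 CPM against 117 and 104 CPM. The part of B, T and NK cells in these values was not tested. Il10ra, an interleukin-10 receptor chain, measured 15.0 ± 1.29 CPM in wild-type cells and 19.3 ± 1.98 CPM in mutant cells (SD, n = 3; edgeR adjusted p = 0.286). Il11ra1, an interleukin-11 receptor chain that works with gp130, measured 14.0, 16.8 and 15.0 CPM in wild-type cells and 12.9, 12 and 11.8 CPM in mutant cells, without overlap (log2 fold change -0.31, SE 0.11; edgeR adjusted p = 0.376). Il2rg, the common gamma chain and the highest of the receptors per kilobase, measured 90.3 ± 5.87 and 87.1 ± 12.1 CPM (edgeR adjusted p = 0.892).

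Of 17 cytokine genes 10 passed the filter on low counts. Of the other 7, Thpo, Epo and Il3 had 0 counts in every library, and Csf2, Csf3, Il11 and Il5 reached at most 1, 2, 11 and 15 counts. Of the 10, 0 passed edgeR's adjusted test, 2 were above 0, against 50.6% of all tested genes, and the median log2 fold change was -0.098. In edgeR 1 had an unadjusted p under 0.05, against 10.6% of all genes in either direction. DESeq2 called the same 1, against 1.68% of all genes it gave an adjusted p, and limma-voom 0. This was Ebi3, the beta subunit of interleukin-27, at 21.7, 20.1 and 17.7 CPM in wild-type cells and 26.8, 31.1 and 28.7 CPM in mutant cells. The genotypes did not overlap (log2 fold change 0.54, SE 0.10; adjusted p = 0.0789 in edgeR, 0.000948 in edgeR without the filter on low counts and 0.000428 in DESeq2). Clcf1, a gp130 cytokine, measured 31.4 ± 3.52 and 28.2 ± 1.53 CPM (edgeR adjusted p = 0.629), and Il7 2.67 ± 0.652 and 2.22 ± 0.330 CPM (edgeR adjusted p = 0.730).

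Known STAT5 and STAT3 target genes went both ways. Of 30 tested, 0 passed edgeR's adjusted test, and the median log2 fold change was -0.025. In edgeR 4 had an unadjusted p under 0.05 as higher and 4 as lower, where 10.6% of all genes reached that level in either direction. DESeq2 called 5, against 1.68% of all genes it gave an adjusted p, and limma-voom 0. Without the filter on low counts edgeR also called 5, against 1.58% of all genes. These were the same 5 as with DESeq2, with adjusted p of 0.000299 for Ccnd1, 0.000836 for Myc, 0.00881 for Ccnd2, 0.014 for Podxl and 0.0207 for Dusp5. Ccnd1, which encodes cyclin D1, measured 42.7, 47.0 and 35.7 CPM in wild-type cells and 55.9, 58.0 and 60.2 CPM in mutant cells, without overlap (log2 fold change 0.47, SE 0.094; edgeR adjusted p = 0.0926, DESeq2 adjusted p = 0.00115). Dusp5, a phosphatase of ERK, measured 5.77, 6.61 and 5.15 CPM in wild-type cells and 10.5, 8.19 and 9.07 CPM in mutant cells, also without overlap (log2 fold change 0.66, SE 0.16; edgeR adjusted p = 0.163, DESeq2 adjusted p = 0.00660). These higher values stand beside lower ones from the same list.

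Podxl, a sialomucin of stem cells and vessels, measured 4.53, 5.20 and 3.41 CPM in wild-type cells and 1.81, 2.36 and 2.72 CPM in mutant cells (log2 fold change -0.94, SE 0.23; edgeR adjusted p = 0.169, DESeq2 adjusted p = 0.0106). Myc, the highest of the list per kilobase, measured 274, 352 and 277 CPM in wild-type cells and 234, 219 and 240 CPM in mutant cells (log2 fold change -0.38, SE 0.094; edgeR adjusted p = 0.181, DESeq2 adjusted p = 0.00762). In both genes every mutant library lay below every wild-type library. The fifth call of DESeq2 was Ccnd2, the cyclin D2 gene, at 229, 243 and 218 CPM in wild-type cells and 170, 194 and 197 CPM in mutant cells (DESeq2 adjusted p = 0.0223, edgeR adjusted p = 0.170). Ccnd2 was named for that count after its values were seen.

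**Figure D5:**
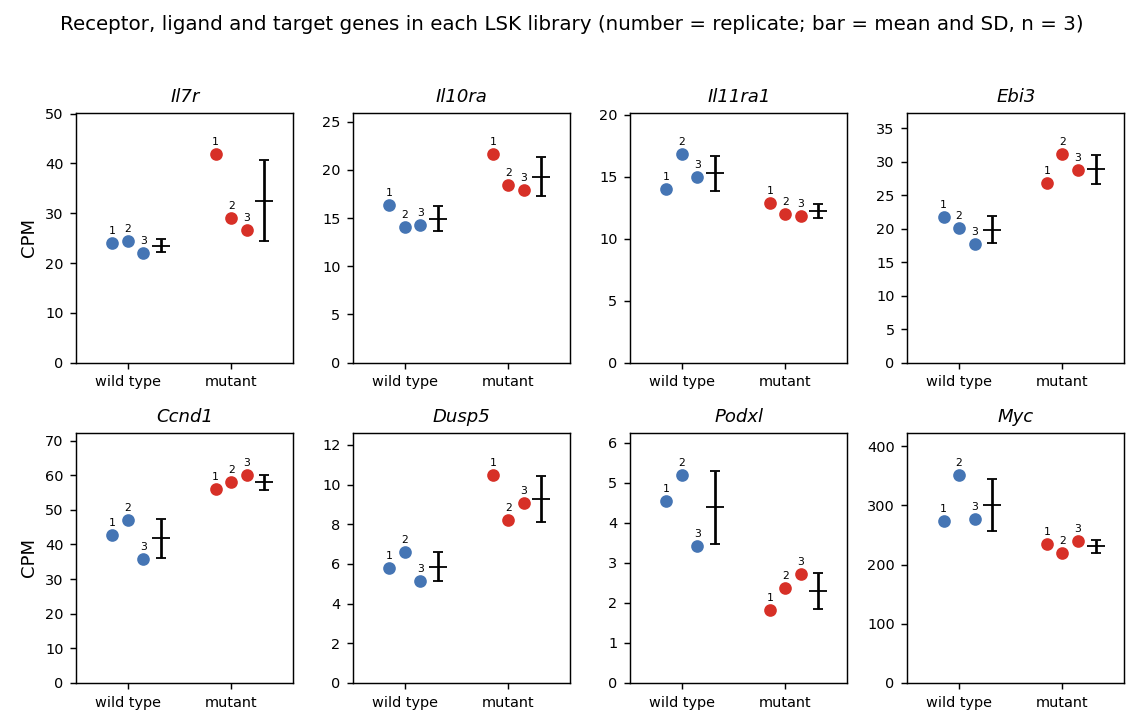
CPM in the 3 wild-type (blue) and 3 mutant (red) libraries for receptor genes (Il7r, Il10ra, Il11ra1), the ligand gene Ebi3 and target genes (Ccnd1, Dusp5, Podxl, Myc), with replicate numbers beside the points and the mean and SD (n = 3) beside each group; every axis starts at 0. Myc is shown for its level per kilobase and the others for having the smallest p of their lists, a choice that favours genes without overlap. The genotypes do not overlap in any of the 8 panels, against 16.3% of all genes without overlap. None of the 8 genes passed edgeR's adjusted threshold. Without the filter on low counts 6 of them, all but Il10ra and Il11ra1, passed it, in a setting that called 1.58% of all genes.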

How the data were processed

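Expected counts per gene in 3 wild-type and 3 Etv6 R355X/+ LSK libraries were deposited by the authors, unscaled. The authors used RSEM 1.31, STAR 2.7 and Trim Galore 0.60 with build mm10, per the submitters' processing notes. The annotation release is not given in the sources used here. Per the labels' protocols, total RNA was amplified by a single-primer isothermal method, which keeps ribosomal RNA and marks no strand. Expected counts share reads that fit several genes.

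Here 92 spike-in rows at 0 were left out, counts were rounded, filtered with filterByExpr (20646 of 55573 genes kept) and scaled by TMM. Genotypes were compared over all genes by edgeR's quasi-likelihood test (edgeR 4.0.16 in R 4.3.3; two-sided, no covariates) with Benjamini-Hochberg adjustment at 0.05. The 95% intervals use the fitted standard error. DESeq2 1.42.0, limma-voom (limma 3.58.1), other scalings and filters, a replicate block and leaving out libraries were alternatives. Positions and exon lengths come from GENCODE M21 (GRCm38), which matched 55394 genes by identifier.

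The members and lists were chosen with earlier results of these data known. Named are all 10 members and, of each other list, genes past the threshold, otherwise the 3 smallest p and the highest level per kilobase. No library repeated another (chi-square per gene 11.2 to 46.5 between replicates). The labels do not say that replicates are separate animals, so the p-values reflect only the spread among these libraries, which may be technical. One measurement table was used, and its depth, 45.2 to 92.2 M, leaves 42 counts for the rarest member in its lowest library. A few genes of the lists are not reported here and were left out of their counts.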

Additional observations from a re-analysis of the deposited data

How the results depend on the processing

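The count of 0 members past the threshold held in all 15 alternatives. The count over all genes, 55, was 328 with DESeq2, 527 without a count filter, 32 with the replicate number as a block, and 16 to 67 with 1 library left out in turn. With mutant replicate 1 and wild-type replicate 3 left out together, chosen after seeing the data, it was 56. With 1 library left out in turn, members called stayed at 0 to 0. The replicate numbers did not pair the libraries: deviations of same-numbered libraries correlated at -0.038, -0.081 and -0.17, and 0 of 6 libraries correlated best with its own number. The block called 0 members. Of the receptor, ligand and target lists, edgeR without a count filter called 2, 1 and 5 genes and DESeq2 0, 1 and 5, where every other alternative called 0.

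Jak1, Stat3, Socs2, Cish and Pim1 kept their direction in 15 of 15 alternatives, but their sizes moved: with 1 library left out in turn Jak1 ranged from 0.038 to 0.13, Stat3 from -0.17 to -0.0085 (the latter without wild-type replicate 2), Socs2 from -0.72 to -0.33, Cish from -0.33 to -0.094, Pim1 from -0.41 to -0.039 and Jak2 from -0.1 to -0.022. Signs turned for values near 0: Socs1 at -0.016 with library size alone, -0.12 without wild-type replicate 2 and -0.048 without mutant replicate 3 (range -0.12 to 0.12 with 1 library left out), Stat5a at 0.016 without mutant replicate 3 (range -0.073 to 0.016), Stat5b at -0.017 without mutant replicate 1 (range -0.017 to 0.13) and Socs3 at 0.011 without mutant replicate 2 (range -0.75 to 0.011). With both named libraries left out Jak2 was 0.0018 and Stat5b -0.067, and Stat5a summed with Stat5b gave 0.023. The cause was not tested. Depth limits Socs1 most.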
